A study of Mus musculus with 3 samples.

Results

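The Schwann cell and neural genes Mbp, Pmp22, Cnp, Gfap, Ngfr, Sox2, Tubb3 and Syt4, were followed across 3 mouse tumour cell lines. They were picked out by gene symbol, and all 8 were found among the 15529 named genes of the deposited RNA sequencing tables. B16-F1 is a skin melanoma line of strain C57BL/6J, Cloudman S91 a skin melanoma line of strain DBA, and 4T1 a mammary carcinoma line of strain BALB/cfC3H. The melanoma lines were kept in DMEM and 4T1 in RPMI, with serum in each, and no line was treated. Messenger RNA was read from 1 library per line. There is therefore no spread between replicates, no test was possible, and tumour type, strain and medium cannot be told apart. The intervals given below are 95% intervals that cover counting error only.

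Schwann cells wrap the axons of peripheral nerves in myelin, a stack of membrane held together by dedicated proteins such as myelin basic protein and peripheral myelin protein 22. They arise from the neural crest, the embryonic cell population that also gives rise to melanocytes, and melanocytes can form from Schwann cell precursors along nerves. The mammary epithelium has no neural crest origin. In melanoma, neural crest and glial genes are widely used as markers of cell state, and NGFR in particular marks dedifferentiated human melanoma cells.

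The tables held between 7412840 and 9098072 expected counts (estimated reads per gene), and levels are given as FPKM, which are fragments per kilobase of gene length, scaled to the size of the library. Genes absent from a table were taken as 0. The labels were checked against lineage markers. The 7 melanocyte markers summed to FPKM 10208 in B16-F1 and 8933 in Cloudman S91, against 7.08 in 4T1, where Tyrp1, Dct, Mlana and Sox10 were not listed. The 6 epithelial markers summed to 0.51 in B16-F1 and 2.62 in Cloudman S91, against 1926 in 4T1. Markers of fibroblasts, immune cells and endothelium summed to at most 11.4 in any line, and that value was Cd68 alone in 4T1. A gene was called different by size alone, where log2(FPKM + 1) differed by at least 2, a 4-fold difference, and where either line of the pair reached FPKM 1. The added 1 shrinks the differences of low genes. Each library enters more than 1 pair, so the pairs are not independent of each other.

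The members fell into 3 levels. Syt4, Tubb3 and Mbp were abundant in both melanoma lines and lower or not listed in 4T1. There Syt4 was not listed and Tubb3 had FPKM 0.72, while Mbp had 6.84, near Cnp in the same line. Mbp had 280 counts in 4T1, beside 278 for Pmp22 and 143 for Cnp, and its FPKM there is divided by a longer listed length, given below. Pmp22 and Cnp lay at FPKM 7.03 to 17.3 in every line. Gfap, Ngfr and Sox2 stayed at 1.03 or below everywhere. The 8 genes summed to FPKM 378 in B16-F1 and 447 in Cloudman S91, against 31.9 in 4T1. In bulk RNA, fewer cells expressing a gene and less RNA per cell cannot be told apart.

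**Figure D1:**
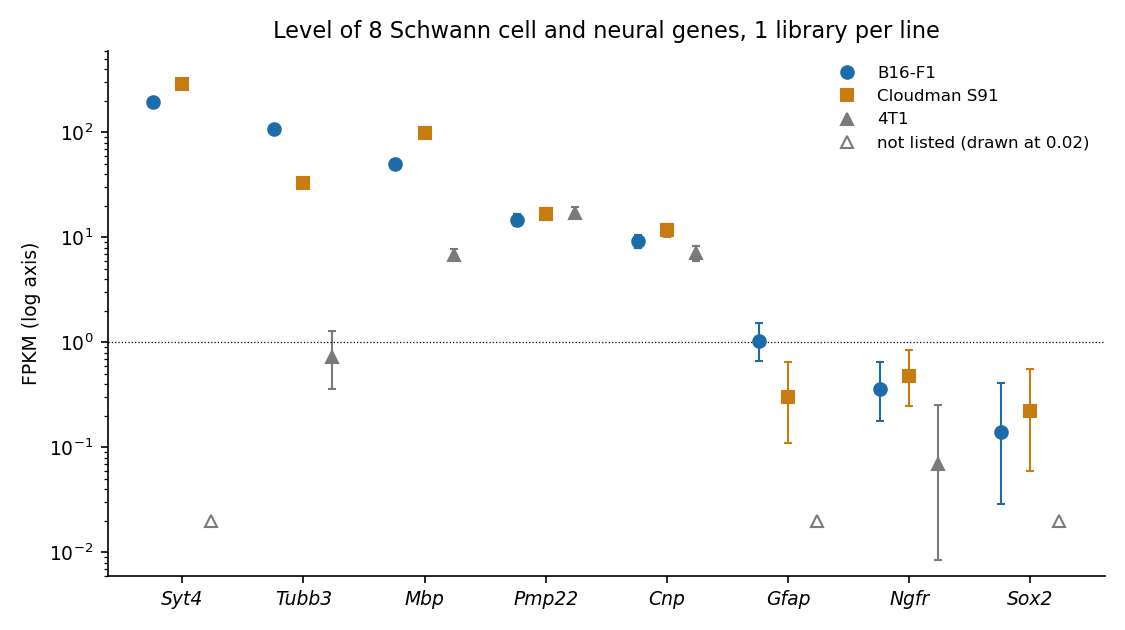
FPKM on a log axis for each of the 8 genes in B16-F1, Cloudman S91 and 4T1, 1 library each; bars are 95% counting intervals, open symbols mark a gene that the table does not list and the dotted line is FPKM 1. Syt4, Tubb3 and Mbp separate the melanoma lines from 4T1, while the 3 symbols of Pmp22 lie between 14.7 and 17.3.

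In B16-F1 against 4T1, 6 of the 8 members passed the FPKM minimum, 3 of them (Mbp, Tubb3 and Syt4) were called higher in B16-F1 and none was called lower. The rule called 6.31% of the 11547 genes compared higher in B16-F1 and 7.43% lower. The median difference of the 6 members was 1.86, beside 0.03 over all genes compared. In Cloudman S91 against 4T1, 5 members passed, and the same 3 were called higher in Cloudman S91, with none called lower. The background was 7.47% of 11657 genes higher in Cloudman S91 and 8.01% lower, and the medians were 3.66 for the 5 members and -0.14 for all genes. Between the melanoma lines none of the 6 members that passed was called in either direction, where the rule called 2.33% of 11133 genes higher in B16-F1 and 3.19% lower, and the medians were -0.24 for the 6 members and 0.14 for all genes. These shares and medians over all genes are also the background for the gene lists below. Gfap passed only through its level in B16-F1. Against 4T1, Syt4 and Tubb3 likewise passed only through the melanoma line. The filter fixed the direction of these differences to 4T1, which bears on the counts and medians of the members. Ngfr and Sox2 passed in no pair.

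**Figure D2:**
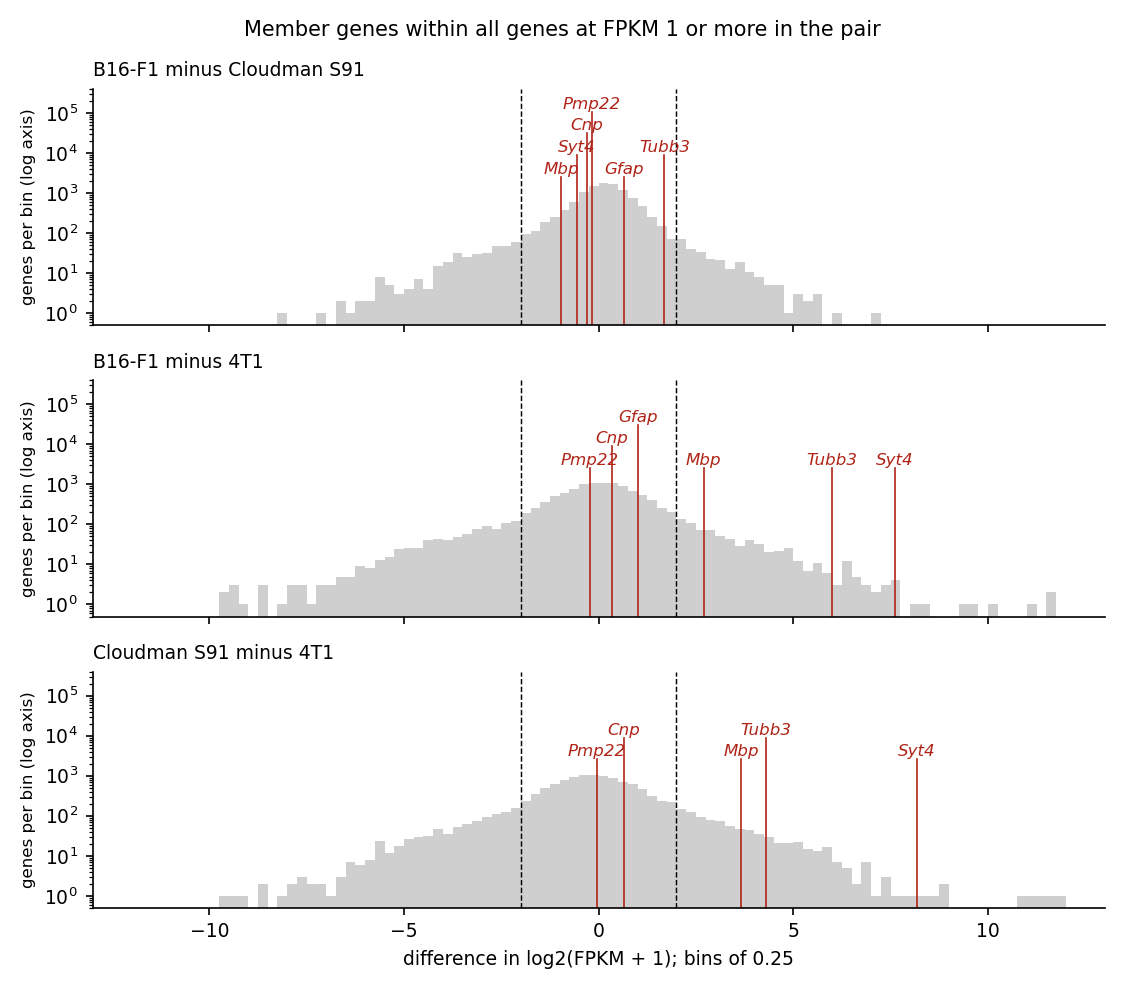
Histograms of the difference in log2(FPKM + 1) for all genes reaching FPKM 1 in the pair (grey, bins of 0.25, log axis), with the members that passed the minimum in red and the 4-fold limits dashed. Mbp, Tubb3 and Syt4 lie beyond the upper limit in both comparisons with 4T1, and all 6 members shown for B16-F1 minus Cloudman S91 lie between the limits.

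Mbp encodes myelin basic protein, which compacts the inner faces of the myelin membrane (chromosome 18, 82475091 to 82585637, plus strand, GRCm38.p6). Its FPKM was 50.02 in B16-F1 and 98.2 in Cloudman S91, against 6.84 in 4T1, from 950, 1570 and 280 counts. Cloudman S91 was highest and 4T1 lowest, and the counting intervals of the 3 libraries did not overlap. The FPKM ratio was 7.31 for B16-F1 over 4T1 (interval 6.39 to 8.39) and 14.4 for Cloudman S91 over 4T1 (12.6 to 16.4). In counts scaled to the library totals, which are not divided by length, the ratios were 3.34 and 6.78. On that scale the log2 difference of B16-F1 over 4T1 was 1.71, and Mbp was no longer called in that pair. B16-F1 over Cloudman S91 was 0.51 (0.47 to 0.55), a difference of -0.96 in log2(FPKM + 1), below the 4-fold rule.

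The gap between the FPKM and count ratios of Mbp follows from its listed length, which was 2140 bases in B16-F1 and 2208 in Cloudman S91, against 4622 in 4T1. The length in 4T1 was 2.16 times that in B16-F1 and 2.09 times that in Cloudman S91. A ratio above 2 was uncommon, with 1.01% of the 11934 genes listed in both the B16-F1 and 4T1 tables. The lengths of the other members listed in both tables of a pair differed by a ratio of at most 1.04. Mbp has transcripts from an upstream start, known as golli transcripts, and from a downstream start 79324 bases away, which gives the classic myelin proteins. Of the 8 RefSeq transcripts in the Mbp rows, matched to GENCODE, 2 begin at the upstream start and are 2492 and 4797 bases long. The other 6 begin at the downstream start and are 638 to 2070 bases long. The listed length in 4T1 thus exceeded every matched transcript but the 4797-base one (Mbp-205), which ends at 82558703, short of the end of the classic transcripts. The melanoma tables list lengths between the longest classic transcript and the 2492-base upstream one. All 3 tables also list 6 assembled transcripts for Mbp. The sources used here do not say how the length was computed, and which transcripts supplied the reads was not tested.

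**Figure D3:**
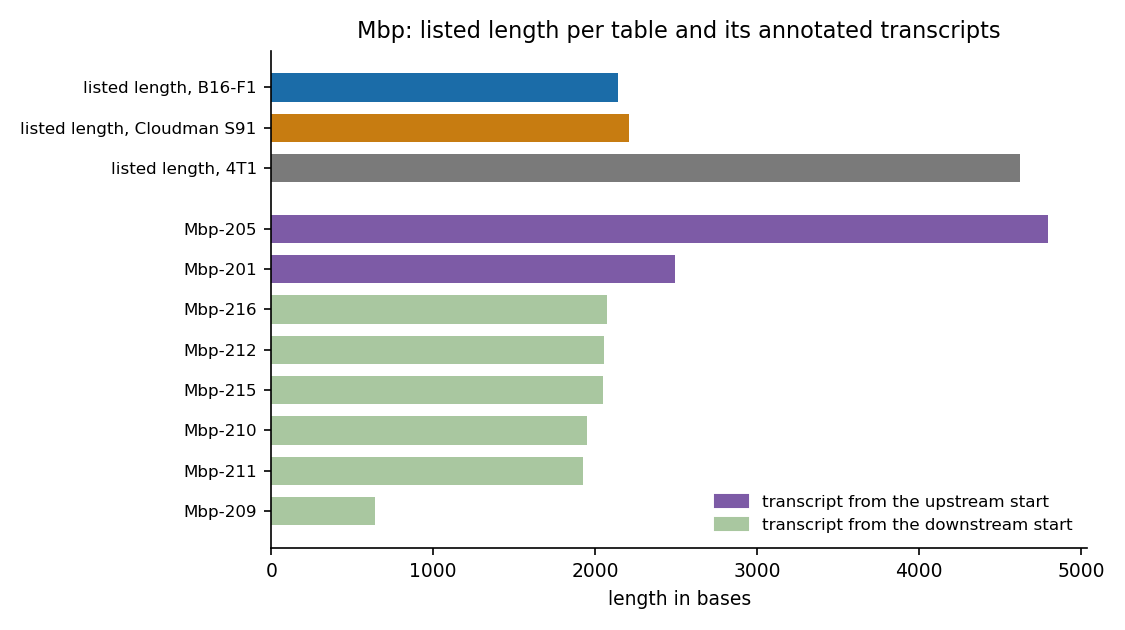
Length in bases of Mbp as listed in the tables of B16-F1, Cloudman S91 and 4T1 (top 3 bars) and of the 8 annotated transcripts matched to its rows, coloured by start. The melanoma tables list 2140 and 2208 bases, and the 4T1 table lists 4622 bases, near the 4797 bases of Mbp-205.

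Pmp22, which encodes a membrane protein of compact myelin that is also made outside the nervous system, was nearly level (chromosome 11, 63128982 to 63159547, plus strand). Its FPKM was 14.7 in B16-F1 and 16.7 in Cloudman S91, against 17.3 in 4T1, from 241, 224 and 278 counts. The counting intervals of all 3 libraries overlapped. The ratio was 0.85 for B16-F1 over 4T1 (0.71 to 1.01), 0.97 for Cloudman S91 over 4T1 (0.81 to 1.16) and 0.88 for B16-F1 over Cloudman S91 (0.73 to 1.06). The sign of its small difference depended on the scaling: rescaled to TPM, the difference was 0.13 with B16-F1 over 4T1 and 0.39 with Cloudman S91 over 4T1, and it was also positive for Cloudman S91 under median-of-ratios (0.07) and upper-quartile scaling (0.17).

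Cnp encodes a phosphodiesterase bound to the membrane of myelinating glia (chromosome 11, 100574909 to 100591875, plus strand). Its FPKM was 9.2 in B16-F1 and 11.65 in Cloudman S91, against 7.03 in 4T1, from 191, 197 and 143 counts. The order was Cloudman S91, B16-F1, 4T1, and the intervals of B16-F1 overlapped those of both other lines. The ratio was 1.31 for B16-F1 over 4T1 (1.05 to 1.64) and 1.66 for Cloudman S91 over 4T1 (1.33 to 2.07), both far under the 4-fold rule, and 0.79 for B16-F1 over Cloudman S91 (0.64 to 0.97). The RefSeq span of Cnp overlaps that of Dnajc7, a chaperone gene on the opposite strand, by 9058 bases. The Cnp transcripts that the tables list end 1089 bases short of Dnajc7, whose FPKM was 76.6 in B16-F1 and 43.97 in Cloudman S91, against 110 in 4T1, an order that differs from that of Cnp.

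Gfap, the intermediate filament of astrocytes and of nonmyelinating Schwann cells, had FPKM 1.03 in B16-F1 and 0.30 in Cloudman S91 and was not listed in 4T1 (chromosome 11, 102887336 to 102897200, minus strand). The counts behind these values were 25 and 6. B16-F1 was the highest, 3.43 times Cloudman S91 (1.37 to 10.2) and at least 8.22-fold above 4T1, with 3 counts given to the library that does not list it. This bound, like the other values written as at least, leaves out the counting error of the line that lists the gene. On the log2(FPKM + 1) scale the difference to 4T1 was 1.02, short of the rule.

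Ngfr encodes p75, the low-affinity receptor of the neurotrophins (chromosome 11, 95568818 to 95587698, minus strand). It had 11 counts in B16-F1 and 12 in Cloudman S91, against 2 in 4T1, for FPKM of 0.36, 0.48 and 0.07. The ratio was 5.14 for B16-F1 over 4T1 and 6.86 for Cloudman S91 over 4T1, with wide intervals of 1.12 to 47.7 and 1.53 to 63.1. Sox2, a transcription factor of neural stem cells and immature Schwann cells (chromosome 3, 34649995 to 34652461, plus strand), had 3 counts in B16-F1 and 4 in Cloudman S91 and was not listed in 4T1, where a count of 0 allows up to 3 counts as a 1-sided 95% limit. At this depth no difference in Sox2 was detectable. Its span lies inside that of the noncoding gene Sox2ot on the same strand.

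Syt4 encodes synaptotagmin 4, a vesicle membrane protein of neurons and endocrine cells, and was the most abundant member in both melanoma lines (chromosome 18, 31437808 to 31447415, minus strand). Its FPKM was 194 in B16-F1 and 287 in Cloudman S91, and it was not listed in 4T1, from 6818 and 8205 counts. It ranked 320 of 13606 named genes in B16-F1 and 179 of 13884 in Cloudman S91. B16-F1 was at least 2240-fold and Cloudman S91 at least 3309-fold above 4T1. Between the melanoma lines the ratio was 0.68 for B16-F1 over Cloudman S91 (0.66 to 0.70), a difference of -0.56.

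Tubb3 encodes beta III tubulin, the tubulin of postmitotic neurons, which many tumours also make (chromosome 8, 123411553 to 123422015, plus strand). Its FPKM was 108 in B16-F1 and 32.8 in Cloudman S91, against 0.72 in 4T1, from 1676, 430 and 11 counts. The 3 intervals were well apart, with B16-F1 highest. The ratio was 150 for B16-F1 over 4T1 (83.5 to 301) and 45.5 for Cloudman S91 over 4T1 (25.2 to 91.9). Between the melanoma lines it was 3.29 (2.96 to 3.67), and the difference of 1.69 was the largest of any member in that pair, though below the rule.

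The gene next to Tubb3 shares its split between the melanoma lines and 4T1. Mc1r encodes the melanocortin receptor of melanocytes, lies on the same strand and ends 808 bases before Tubb3 begins (chromosome 8, 123407082 to 123410744). Its FPKM was 89.1 in B16-F1 and 78.9 in Cloudman S91, against 0.08 in 4T1. Tubb3 had a count that is not whole in both melanoma tables, unlike the other 7 members. The Tubb3 and Mc1r counts added up to whole numbers (within 0.005), 4614 in B16-F1 and 2550 in Cloudman S91. Each gene has 1 assembled transcript in the melanoma tables and none in that of 4T1. The division of reads between the neighbours is therefore uncertain. With the pair summed, FPKM was 197 in B16-F1 and 112 in Cloudman S91, against 0.80 in 4T1, a ratio of 246 for B16-F1 over 4T1 and 140 for Cloudman S91 over 4T1, but the ratio of B16-F1 over Cloudman S91 was 1.76 in place of 3.29. In summed counts scaled to library totals, which are not divided by length, these 3 ratios were 334, 227 and 1.47. On the other side, Def8, 20940 bases away, had FPKM 16.9 in B16-F1 and 12.0 in Cloudman S91, against 5.54 in 4T1, and was not called.

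The 250 bases before the RefSeq starts of Tubb3 (chr8:123411303-123411552) and Mc1r (chr8:123406832-123407081) are shown, plus strand, GRCm38.p6, because both neighbours were called higher in each melanoma line than in 4T1. Capitals mark matches, on either strand, to the E-box CACGTG, the M-box letters TCATGTG, the Sox motif ACAAAG or the CCAAT box.
Tubb3: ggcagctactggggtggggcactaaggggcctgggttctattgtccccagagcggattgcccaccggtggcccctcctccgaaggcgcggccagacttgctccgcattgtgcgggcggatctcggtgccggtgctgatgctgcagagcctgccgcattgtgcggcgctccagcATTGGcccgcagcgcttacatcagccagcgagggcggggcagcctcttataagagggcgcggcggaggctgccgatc
Mc1r: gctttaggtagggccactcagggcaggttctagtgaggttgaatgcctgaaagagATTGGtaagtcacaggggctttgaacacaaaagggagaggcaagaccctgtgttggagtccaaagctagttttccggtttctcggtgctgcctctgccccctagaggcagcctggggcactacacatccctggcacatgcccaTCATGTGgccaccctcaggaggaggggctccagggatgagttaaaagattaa

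The Tubb3 window held 1 match, to CCAAT read on the other strand (ATTGG), a motif present in 33.8% of the 32851 windows of this length before RefSeq starts. The Mc1r window held CCAAT on the other strand and TCATGTG, the letters of the M-box known from pigment gene promoters, which 3.25% of windows hold. CACGTG (6.02% of windows) and ACAAAG (16.5%) were in neither. The start of Tubb3 in GENCODE lies 129 bases upstream of the RefSeq start, inside the window. No motif of the 4 contains another. Windows on chromosome 18, which holds Mbp and Syt4, were left out of the search, so it covered 6 of the 8 members. Of these 6, 3 genes held CCAAT, 2 held ACAAAG and none held CACGTG or TCATGTG, which says only that these letters are not in these windows.

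The neighbours of the other members were not called. Zfp236, 7955 bases beyond Mbp, had FPKM 5.58 in B16-F1 and 7.07 in Cloudman S91, against 4.45 in 4T1. Slc25a46, 132748 bases from Syt4, had 20.1 in B16-F1 and 17.4 in Cloudman S91, against 6.96 in 4T1. Besides Mc1r, none of the genes beside or overlapping a member and listed in a table was called in any pair.

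Within their families Syt4 and Tubb3 stood differently. Of 22 synaptotagmins and synaptotagmin-like genes, families of vesicle and membrane proteins, 19 were in a table, and Syt4 held 75.5% of their summed FPKM in B16-F1 and 82.2% in Cloudman S91. In 4T1 Syt8 held 73.4% (FPKM 32.0, not listed in the melanoma tables). In B16-F1 against 4T1, 3 of the 11 that passed the minimum were called higher and 1 lower, and in Cloudman S91 against 4T1, 5 of 10 were called higher and 1 lower. Beside Syt4 the higher ones in both pairs were Syt9 (18.6 in B16-F1 and 12.0 in Cloudman S91, not listed in 4T1) and Sytl2 (31.5 in B16-F1 and 28.3 in Cloudman S91, against 0.10 in 4T1), an effector of the vesicle GTPase Rab27a. The medians were 1.45 and 1.28, beside 0.03 and -0.14 over all genes. The counts depended on the scaling. For B16-F1 they were 6 higher and 3 lower in TPM, and 5 higher and 5 lower when the expected counts were scaled to library totals. For Cloudman S91 they were 5 higher and 2 lower in TPM, and 5 higher and 3 lower in the scaled counts.

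Tubb3 was a minor beta tubulin throughout, with 8.04% of the family's FPKM in B16-F1 and 3.71% in Cloudman S91, against 0.07% in 4T1. Tubb5 led every line, at FPKM 830.0 in B16-F1 and 481 in Cloudman S91, against 672 in 4T1, followed by Tubb4b. In B16-F1 against 4T1 Tubb3 was the 1 beta tubulin of 7 called higher, and none was called lower. In Cloudman S91 against 4T1 Tubb2b was called as well (85.6 in Cloudman S91, against 7.64 in 4T1; 21.2 in B16-F1). The family's sum was 1341 in B16-F1 and 883 in Cloudman S91, against 1073 in 4T1. Beta tubulins are alike in sequence and can share reads.

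**Figure D4:**
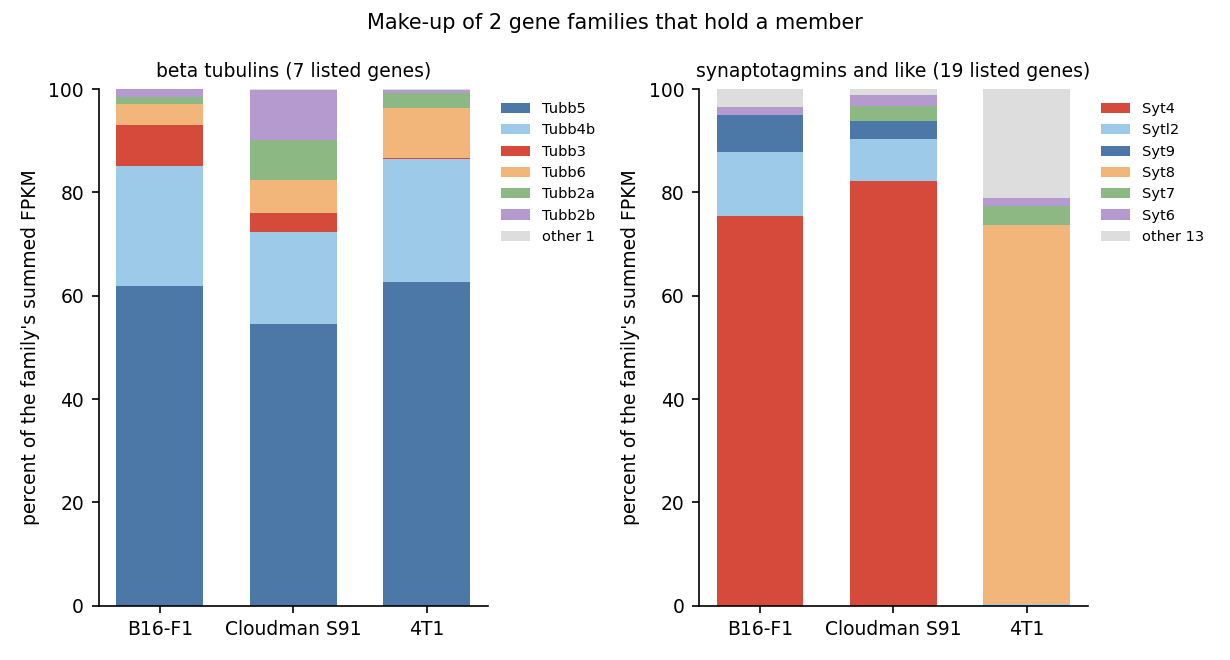
Percent of the summed FPKM held by each gene of the beta tubulins (left) and of the synaptotagmins and synaptotagmin-like genes (right) in B16-F1, Cloudman S91 and 4T1. Syt4 (red, right) makes up 75.5% and 82.2% in the melanoma lines and has no share in 4T1, and Tubb3 (red, left) makes up 8.04%, 3.71% and 0.07%.

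Of the genes that mark and regulate the Schwann cell lineage, 16 passed between the melanoma lines. Of these, 1 was called higher and 1 lower in B16-F1, where the rule called 2.33% and 3.19% of all genes. Of 25 such genes 19 passed in B16-F1 against 4T1, with 10 called higher and 3 lower (median 2.28). Over all genes the rule called 6.31% higher and 7.43% lower in that pair (median 0.03). In Cloudman S91 against 4T1, 20 passed, with 9 higher and 3 lower (median 1.53), beside 7.47% and 8.01% of all genes (median -0.14). Against 4T1, Sox10, Pax3, Cdh19, Fabp7, Ncam1 and S100b passed only through the melanoma line, and Nrg1, Artn and Adgrg6 only through 4T1. The filter fixed the direction of such differences, which bears on these counts and medians. Sox10, the master regulator of neural crest glia and melanocytes, had FPKM 204 in B16-F1 and 175 in Cloudman S91. Cdh19, a cadherin of Schwann cell precursors, had 45.5 in B16-F1 and 46.3 in Cloudman S91, and Pax3 had 49.6 and 59.9. None of these 3 was listed in 4T1, and the fold of Cdh19 was at least 409 for B16-F1 and at least 416 for Cloudman S91. Erbb3, the neuregulin receptor of Schwann cells, had 23.1 in B16-F1 and 84.2 in Cloudman S91, against 1.30 in 4T1. The genes called lower in both pairs were Nrg1, which encodes the ligand of that receptor (7.38 in 4T1), Artn and Adgrg6. S100b was higher in B16-F1 than in Cloudman S91 (23.0 against 2.0), and Foxd3, a neural crest transcription factor, was lower (not listed in B16-F1, 9.93 in Cloudman S91). Other genes of the list stayed under FPKM 1 in every line, among them Egr2 (0.19 in B16-F1 and 0.14 in Cloudman S91), Pou3f1 (0.11 and 0.14) and Gap43 (0.26 and 0.53). Dhh had 0.21 in B16-F1 and 0.71 in Cloudman S91, against 2.05 in 4T1, and was not called in FPKM. In counts scaled to library totals, Dhh was called lower and Pou3f2 higher in B16-F1 than in 4T1. L1cam and S100b were called higher in Cloudman S91 than in 4T1 in TPM.

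Of 24 further myelin protein and lipid genes examined, 19 were in a table, and 5 reached FPKM 1 in each line. Mag, an adhesion protein of the inner myelin membrane, was at most 0.06. Of the 6 that passed in B16-F1 against 4T1, 1 was called higher and 2 lower (median -0.16). Of the 6 that passed in Cloudman S91 against 4T1, none was called higher and 1 lower (median 0.21). Gjc3, a connexin of myelinating glia, had 25.3 in B16-F1 and 16.04 in Cloudman S91, against 3.66 in 4T1, and passed the rule for B16-F1. In Cloudman S91 its difference of 1.87 fell short of the rule, which it passed in TPM, under upper-quartile scaling and in counts scaled to library totals. Tspan2, a tetraspanin of myelinating glia, was lower in both melanoma lines, at 0.11 in B16-F1 and 0.34 in Cloudman S91, against 4.4 in 4T1, and its call in Cloudman S91 was lost under median-of-ratios and upper-quartile scaling. Cd9, a tetraspanin with a wide distribution, was called lower in B16-F1 (36.7) and not in Cloudman S91 (136), against 256 in 4T1.

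**Figure D5:**
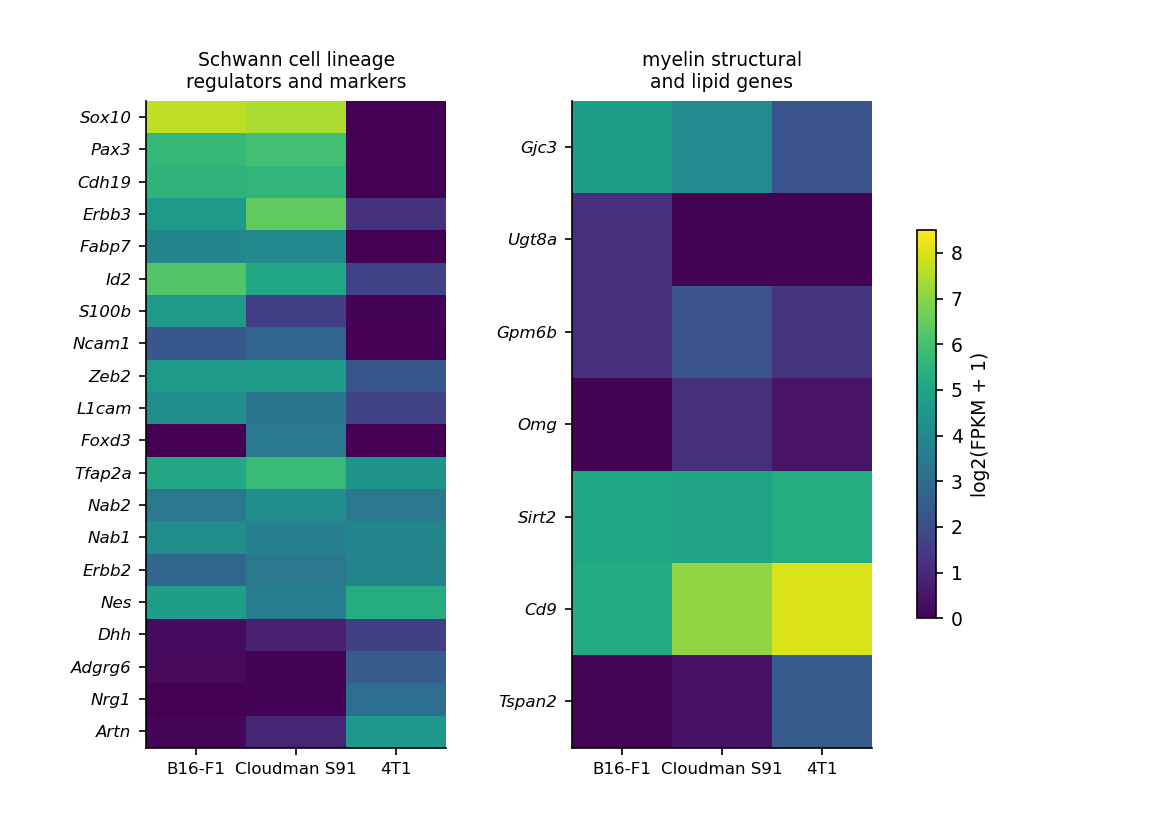
Level as log2(FPKM + 1) in B16-F1, Cloudman S91 and 4T1 for the Schwann cell lineage genes (left) and the myelin genes (right) that reached FPKM 1 in any line, ordered by the melanoma mean minus 4T1. Sox10, Pax3 and Cdh19 head the left panel and Gjc3 the right one, while Artn, Nrg1 and Tspan2 are higher in 4T1.

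The 4 neurotrophin ligands summed to FPKM 0.32 in B16-F1 and 0.40 in Cloudman S91, against 3.25 in 4T1, of which Bdnf made 2.51. None was called in FPKM, while Bdnf was called lower in both melanoma lines in TPM and in counts scaled to library totals. Among 12 receptors and coreceptors, Sort1, which encodes sortilin, the partner of p75 in binding proneurotrophins, was the outstanding gene, at 61.4 in B16-F1 and 74.8 in Cloudman S91, against 0.30 in 4T1. Rtn4r, a Nogo receptor, was called lower in B16-F1 than in 4T1 (not listed against 5.01). Sorcs2 was lower in B16-F1 than in Cloudman S91 (0.12 against 6.17). Intracellular partners of p75 were present in every line, with Arhgdia at 434 in B16-F1 and 281 in Cloudman S91, against 302 in 4T1, and Maged1 at 139 in B16-F1 and 90.0 in Cloudman S91, against 99.8 in 4T1. In FPKM only Zfp369 of 10 was called (12.8 in B16-F1 and 23.7 in Cloudman S91, against 0.91 in 4T1), and Kidins220 was called higher in Cloudman S91 than in 4T1 in TPM and in counts scaled to library totals.

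Sox2 itself passed the minimum in no pair. The 3 Sox factors called higher in both melanoma lines than in 4T1 were Sox10, Sox11 and Sox6. Sox11 had 18.3 in B16-F1 and 8.55 in Cloudman S91, against 0.04 in 4T1. Sox6 had 15.5 in B16-F1 and 4.02 in Cloudman S91 and was not listed in 4T1. In Cloudman S91 against 4T1 Sox5 was called as well. Sox9, Sox12 and Sox15 were lower in B16-F1 than in 4T1 and Sox15 was lower in Cloudman S91, of 9 factors that passed in each pair. The Sox9 call was lost after rescaling to TPM. Sox4 was present in every line, at 16.9 in B16-F1 and 60.4 in Cloudman S91, against 26.9 in 4T1. Beside Gfap, the intermediate filaments outside the keratins were led in all lines by Vim (1226 in B16-F1 and 844 in Cloudman S91, against 1560 in 4T1) and Lmna, and none was called in B16-F1 against 4T1. Des, the muscle filament, was called higher in Cloudman S91 (3.58, not listed in 4T1).

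Markers of mature neurons and other glia went in both directions. Of 18 neuronal markers, 7 passed in B16-F1 against 4T1, with 4 higher and 1 lower (median 2.06), and 5 in Cloudman S91 against 4T1, with 2 higher and 1 lower (median 1.07). The higher ones in both pairs were the growth cone proteins Dpysl3 (16.8 in B16-F1 and 18.4 in Cloudman S91) and Crmp1 (6.29 and 6.52), neither listed in 4T1. Uchl1, a neuronal ubiquitin hydrolase, was higher in B16-F1 (19.9) than in Cloudman S91 (0.86) and was not listed in 4T1. Celf4, an RNA-binding protein, was higher in 4T1 (7.14). The neuronal splicing factor Rbfox3 was at most 0.09 and the synaptic fusion protein Snap25 at most 0.05. Of 10 astrocyte markers, 2 were higher (Aldh1l1 and S100b) and 2 lower (Sox9 and Gja1) in B16-F1 than in 4T1, and the water channel Aqp4 was at most 0.03. No oligodendrocyte lineage gene reached FPKM 1 in B16-F1 or 4T1, and Pdgfra (15.6), Cspg4 (4.53) and Bcas1 (3.73) did so in Cloudman S91, where all 3 were called higher than in 4T1. Of 15 neural progenitor genes, Fabp7, a fatty acid binding protein of radial glia and Schwann cell precursors, was higher in both melanoma lines (14.03 in B16-F1 and 15.3 in Cloudman S91, not listed in 4T1), Hes1 was lower in both, and Lin28a was higher in Cloudman S91 (5.97, not listed elsewhere).

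Of the 9 relatives and partners of Pmp22, Emp2, Perp and Itgb4, genes of epithelial membranes and junctions, were lower in both melanoma lines than in 4T1 (46.9, 61.1 and 22.8 in 4T1), with Emp1 also lower in B16-F1, while Emp3 and Canx, a chaperone of the endoplasmic reticulum, were not called. After rescaling to TPM Canx was called higher in B16-F1 (266.0, against 84.1 in 4T1). Of 25 exocytosis and secretory granule genes, 10 passed in each comparison with 4T1 and 1 was called in each direction in FPKM: Rab27a, which moves melanosomes and other granules (75.7 in B16-F1 and 48.1 in Cloudman S91, against 1.43 in 4T1), and Unc13d (17.2 in 4T1). Rab3a was called higher in Cloudman S91 than in 4T1 under each of the 4 other scalings. Against 4T1, Snap23 was called higher in both melanoma lines in TPM, and Rab27b lower in both in counts scaled to library totals. Stx4a, a fusion protein of the plasma membrane, had 28.1 in B16-F1 and 35.5 in Cloudman S91, against 26.2 in 4T1. In FPKM none of the 6 tubulin folding cofactors and none of the 6 genes of RNA ends listed with Cnp was called in any pair. The exception under other scalings was Tbcd, higher in B16-F1 than in 4T1 in TPM. The most abundant cofactor was Tbca, at 140.0 in B16-F1 and 98.2 in Cloudman S91, against 163 in 4T1, and the most abundant gene of RNA ends was the ligase gene Rtcb, at 66.3 in B16-F1 and 71.2 in Cloudman S91, against 89.2 in 4T1. Among 11 alpha and other tubulins only Tubg2 was called in FPKM, higher in B16-F1 (6.90) than in Cloudman S91 (0.46), and in TPM Tubd1 was also called higher in B16-F1 than in 4T1. Tuba1b led these tubulins, at 1680.0 in B16-F1 and 577 in Cloudman S91, against 599 in 4T1.

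The closest patterns over the 3 lines were sought by Euclidean distance in log2(FPKM + 1), for members at FPKM 10 or more in some line. For Syt4 they were Sox10 (distance 0.72) and Oca2 (0.74), and no gene lay within 0.5. For Mbp they were Myo10 (0.36) and Adi1 (0.65), and for Tubb3 Fam53b (0.40) and Bace2 (0.83), each with 1 gene within 0.5. Pmp22 and Cnp had 328 and 266 genes within that distance, led by Rwdd4a and Acap3. With 3 points, 1 library each, these distances are a description.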

How the data were processed

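Messenger RNA of 3 mouse cell lines was sequenced, 1 library each, and 3 gene tables were deposited. The submitters' processing notes name HISAT, StringTie and mm10, without versions. The expected counts in the deposited tables are estimated reads per gene, not normalised, with 88.1% to 88.9% of values whole (within 0.005). The FPKM values, per the file headers, are made by the authors and scale with listed length and library size. Rows without a symbol (2.24% to 4.32% of counts) entered no comparison. Smallest listed counts were 0.11 to 0.18, so an unlisted gene was taken as 0 and given 3 counts for a lower bound on a fold.

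Positions came from RefSeq GRCm38.p6 by gene number and transcripts from GENCODE M21. Differences used log2(FPKM + 1). Intervals are exact Poisson for a level and conditional binomial for a ratio, from rounded counts (Python 3.11.15, scipy 1.17.1), and PCR duplicates would make them too narrow. The counting program and its use of strand are not given in these sources.

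The 8 members and the 23 other lists (268 genes) were chosen with earlier results of these data known. The rule for names took up to 4 called genes with the largest differences and the 2 most abundant of each list, the neighbours of members and the 2 closest patterns, and not all of these are printed; other genes named were chosen after their values were seen. The rule of size was run on simulated counts with planted changes in genes with many counts, as a check of its coding. The simulation held no length differences between lines and no shared reads, so it does not bear on those limits for Mbp and Tubb3. Alternatives were other pseudocounts, filters, fold limits and scalings (TPM, median of ratios, upper quartile, counts scaled to library totals). A small number of genes of these lists are not reported here.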

Additional observations from a re-analysis of the deposited data

Results flagged for a closer look

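Rows without a symbol hold alpha tubulin reads outside every comparison above. In B16-F1, 5 such rows described as alpha tubulin chains summed to FPKM 3410, and in Cloudman S91, 5 rows summed to 1440, against no such row in 4T1. With the named alpha tubulins added, the sums were FPKM 5815 in B16-F1 and 2581 in Cloudman S91, against 1017 in 4T1. No row without a symbol was described as beta tubulin or as the product of any of the 8 members in any table.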

How the results depend on the processing

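The call counts of members stayed within 1.5 times under 59 of 60 alternative values, a weak check for counts this small. Many of these values compare 0 with 0, as no member was called lower in any pair under any alternative. A count of 3 may become 2 or 4 within that limit. Under a 2-fold rule 1 member, Tubb3, was higher in B16-F1 than in Cloudman S91, where the 4-fold rule called 0. In B16-F1 against 4T1 the number called higher ran from 2, without Mbp, under the 8-fold rule and in counts scaled to library totals, to 4, with Gfap, under pseudocount 0.1 and the 2-fold rule. In Cloudman S91 against 4T1 it was 3 throughout. Of 147 alternative differences of members 65 moved and none of a called member changed sign. Only Pmp22, never called, changed sign, in 1 and 3 of 6 alternatives of the comparisons with 4T1. Adding Mc1r to Tubb3, chosen after seeing the data, gave differences of 0.81 between the melanoma lines and 6.78 and 5.97 against 4T1. TPM moved the median of all genes to 0.06, 0.38 and 0.31 for B16-F1 minus Cloudman S91, B16-F1 minus 4T1 and Cloudman S91 minus 4T1, and the share of all calls that were higher to 56.7% in B16-F1 and 59.9% in Cloudman S91 against 4T1, beside 45.9% and 48.3%. Over all alternatives the genes called higher and lower numbered 60 to 1209 and 113 to 1014 in B16-F1 against Cloudman S91 (259 and 355 as reported), 305 to 2140 and 396 to 2180 in B16-F1 against 4T1 (729 and 858), and 327 to 2103 and 400 to 2627 in Cloudman S91 against 4T1 (871 and 934). Of 131 calls in the other lists, counted per list and pair, 129 to 131 were kept under the 4 scalings and none changed sign. This leaves out calls that were gained, which each of the 4 scalings added, so the list counts depended on the scaling. For the synaptotagmins in B16-F1 against 4T1, 3 higher and 1 lower became 5 higher and 5 lower in counts scaled to library totals. No paired analysis was possible because each line has 1 library. Depth limits Sox2 and Ngfr, at 12 counts or fewer in any library.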
